A study of Homo sapiens with 3 samples.

Results

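Metallothioneins are small cysteine-rich proteins that bind zinc, copper and cadmium, and the human genes lie side by side on chromosome 16. The 9 members described here, MT1A, MT1B, MT1E, MT1F, MT1G, MT1H, MT1X, MT2A and MT3, were taken by gene name from the array annotation, by a rule that uses no signal. They are 9 of 30982 gene names and are read by 15 of 41000 probes. The arrays compared 3 populations of 1205Lu, an established human metastatic melanoma cell line, with 1 array for each. The original monolayer (OM) was kept flat for 14 days in RPMI with 10% fetal calf serum (FCS). The melanoma bodies (MBs) were adherent 3D clusters from 14 days in human embryonic stem cell (hESC) medium, in which 20% KO serum replacement stood in for serum. The new monolayer (NM) was obtained by putting bodies from 14 days of hESC medium back into the standard FCS medium for 10 days, with residual bodies taken off. No engineered genetic change was described for any of the populations, and all 3 arrays sat on 1 slide. Because medium and growth form changed together and each population is 1 culture, medium, growth form and culture-to-culture variation cannot be told apart, and no test across samples was made.

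Zinc entering a cell is sensed by the transcription factor MTF1, which binds short metal response elements in front of the MT1 and MT2A genes and switches them on. Glucocorticoids and oxidative stress also raise these genes, so their transcripts are widely read as a report of metal and hormone supply. MT2A is the main isoform in most human cells, the MT1 genes are a recent array of near copies, and MT3 is known mainly from brain and is not switched on by metals in the same way. In melanoma and other tumours metallothionein protein is best known as a marker studied for prognosis and for resistance to metals and drugs.

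Because the MT1 genes are so alike, a probe for one can bind the transcript of another, and the probe sequences are printed here for that reason. Of the 15 probes, all 60 bases long, 6 shared an identical run of 20 bases or more with a probe for another member. The first pair reads the same stretch of coding sequence in MT1X and MT1H and differs at 3 of 58 overlapping bases, which are in capitals.
MT1X, probe A_23_P303242: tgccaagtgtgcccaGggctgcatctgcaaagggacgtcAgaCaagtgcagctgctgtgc
MT1H, probe A_23_P414343: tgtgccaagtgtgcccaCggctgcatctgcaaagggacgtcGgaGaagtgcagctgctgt
The array's own annotation tied this MT1X probe to transcripts of MT1A, MT1H and MT1X, and this MT1H probe to MT1H, MT1L and MT1X. The second pair, for MT1A and for the other MT1H probe, overlaps by 54 bases with 4 differences, again in capitals.
MT1A, probe A_23_P54840: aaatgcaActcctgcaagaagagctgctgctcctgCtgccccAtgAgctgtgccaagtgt
MT1H, probe A_23_P163782: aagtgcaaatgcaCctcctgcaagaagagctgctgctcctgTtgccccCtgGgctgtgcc
Each of these 2 probes holds 8 cysteine codons (tgc or tgt) among the 20 codons of its open frame. The coding probe of MT3, shown for contrast, holds 4 in 20 and shared no more than 15 bases in a row with any other member's probe.
MT3, probe A_23_P315273: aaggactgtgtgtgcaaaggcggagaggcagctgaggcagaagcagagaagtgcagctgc
Values below are therefore those of probes, and a value given for one MT1 gene can hold signal from its neighbours; the share was not tested.

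**Figure D1:**
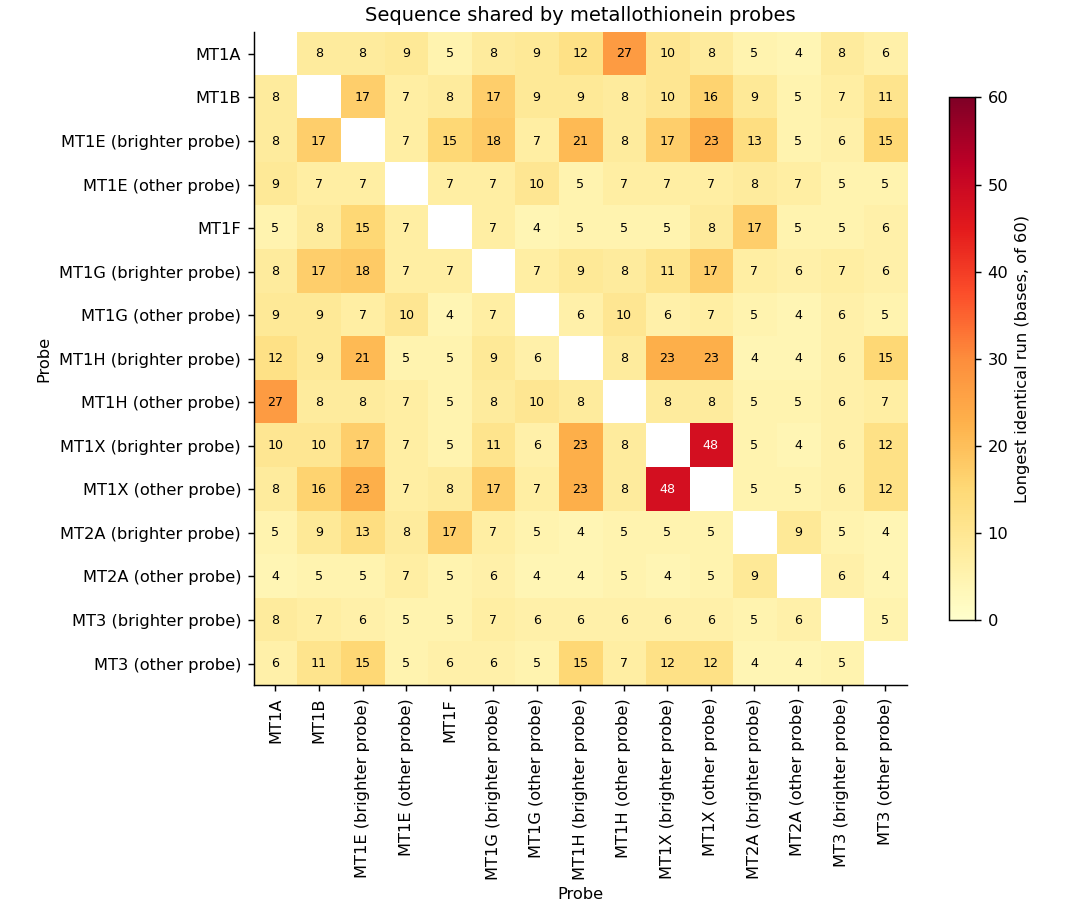
Longest run of identical bases (number in each cell, colour scale 0 to 60) between every pair of the 15 metallothionein probes, with both axes listing the probes by gene and, for genes with more than 1, by brighter or other probe. The 2 MT1X probes share 48 bases, the MT1A probe shares 27 with an MT1H probe, and the probes of MT2A share no more than 17 with any probe of another member.

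All 9 genes lie between MT3 and MT1X on chromosome 16, where the array annotation (hg17) places the probes from base 55182294 to base 55275470. The MT1A probe (55230706-55231309), 1 MT1G probe (55258789-55259436) and 1 MT1H probe (55261957-55262342) cover more than their 60 bases of genome and so cross an intron, while the others lie in 1 block. Every member probe was printed in 1 spot. On all 3 arrays 14 of the 15 stood well above background, 0 were saturated, and the coding probe of MT3 was at background throughout. The scanner read 10 of them, from 7 genes, from its low-gain pass on all 3 arrays, as it did for 1813 probes of the whole array.

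Signals are in arbitrary units (a.u.) after scaling to the housekeeping genes GAPDH, ACTB and HSP90AA1, whose mean in MB was 0.978 and in NM 0.877 times that in OM. A gene with several probes is represented by the one with the highest mean signal, and levels are compared between arrays for the same probe only. Repeat spots exist for other probes of the array, printed 10 times each. By these, the technical SD of a single-spot log2 ratio was 0.07 above 100 a.u., or 1.05-fold, without the spread that separate cultures would add. The melanoma identity of the cells was checked by markers. Of 11 melanocyte and melanoma markers on the array, 8 to 9 were well above background, among them SOX10, S100B, CSPG4 and VIM, while the pigment enzymes TYR and TYRP1 were not on any array. Of the fibroblast collagens COL1A1, COL1A2 and COL3A1 and the leukocyte gene PTPRC, none was above that level. The 6 fibroblast markers, of which 1 to 2 were well above background and PDGFRA made up most, summed to 5563 a.u. in OM, 10168 in MB and 3687 in NM, and their part in the values below was not tested.

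By their representing probes, the MT1 and MT2A genes were highest in the new monolayer and lowest in the melanoma bodies. The original monolayer lay between them. This order, NM over OM over MB, was seen in 8 of the 9 genes and in 11 of the 14 measured probes. It was the order of 26.9% of the 19245 genes measured on all 3 arrays. MT3 was level across the populations. The other MT2A probe was level between OM and MB (log2 ratio 0.01), and the other MT1E probe was lowest in OM. With the representing MT2A probe the step from OM to MB was small, a log2 ratio of -0.09 against a technical SD of 0.07. In the bright MT1 probes the step from OM down to MB was 1.10-fold to 1.26-fold and that from OM up to NM 1.69-fold to 1.84-fold. After quantile normalization MT1E and MT2A lost the step between OM and MB, with log2 ratios of 0.01 and 0.04.

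**Figure D2:**
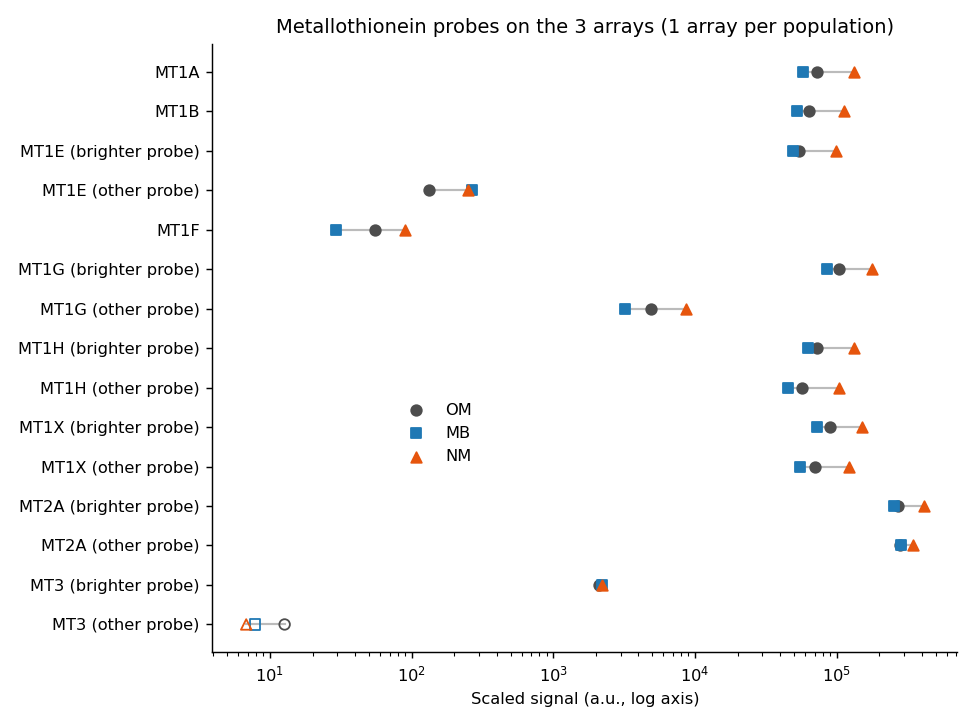
Scaled signal (a.u., log axis) of each of the 15 metallothionein probes on the OM (circles), MB (squares) and NM (triangles) arrays, 1 array per population, with open symbols for signals not well above background and grey lines joining the values of a probe. In the bright MT1 probes the square lies left of the circle and the triangle lies right of it, while the 3 symbols of the brighter MT3 probe lie on each other.

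MT2A, the main isoform, gave 271343 a.u. in OM, 254889 in MB and 411617 in NM with its representing probe (hg17 chr16:55200782-55200841). The NM value stood apart and the values of OM and MB lay close together. The log2 ratio was -0.09 for MB over OM and 0.60 for NM over OM, the latter a 1.52-fold difference, and -0.69 for MB over NM. The other MT2A probe gave 281308, 283896 and 345439 a.u. in the same order, with log2 ratios of 0.01, 0.30 and -0.28. Both probes were highest in NM, and they differed in size by more than the technical SD. A further probe, which carries a transcript identifier and no symbol but shares 49 bases in a row with the second MT2A probe, gave 235179 a.u. in OM, 222481 in MB and 324364 in NM, a log2 ratio of 0.46 for NM over OM. The MT2A spots used between 45.3% and 65.9% of the scanner's saturation value, against at most 31.7% for any MT1 spot, and whether that height bears on the smaller MT2A ratios was not tested.

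MT1X, an MT1 gene active in many cell types, gave 89378 a.u. in OM, 72588 in MB and 151449 in NM, and its other probe 69979, 55545 and 122536 a.u. The 2 probes overlap in sequence and moved together. Their log2 ratios were -0.30 and -0.33 for MB over OM and 0.76 and 0.81 for NM over OM. For MB over NM they were -1.06 and -1.14, differences of 2.09-fold and 2.21-fold.

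MT1G, a gene often described as silenced in tumours, gave 103993 a.u. in OM, 85197 in MB and 177703 in NM. Its other probe, which crosses an intron and shares at most 10 bases in a row with any other member's probe, gave 4916, 3215 and 8666 a.u. The order of the populations was the same with both. The log2 ratio of MB over OM was -0.29 with the first and -0.61 with the second, and that of NM over OM 0.77 and 0.82.

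MT1H gave 73264 a.u. in OM, 62787 in MB and 133416 in NM, and its other probe 57150, 45483 and 104723 a.u. Both placed NM above OM and OM above MB. The log2 ratios of MB over NM were -1.09 and -1.20.

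MT1A, an isoform induced by cadmium and zinc, gave 72481 a.u. in OM, 57604 in MB and 133327 in NM. Among the 8 MT1 probes above 10000 a.u. on average it had the lowest log2 ratio of MB over NM, -1.21, a 2.31-fold difference. MT1B gave 63702 a.u. in OM, 52874 in MB and 112401 in NM, with log2 ratios to OM of -0.27 in MB and 0.82 in NM. Its probe shared no more than 17 bases in a row with any other member's probe, but matched the representing MT1E probe at 49 of 59 overlapping bases. It gave ratios within the range of the rest and is not an independent reading.

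MT1E gave 54528 a.u. in OM, 49405 in MB and 99336 in NM with its representing probe (hg17 chr16:55218354-55218413), and log2 ratios of -0.14 for MB over OM and 0.87 for NM over OM. Its other probe (hg17 chr16:55218115-55218174), designed on a different transcript record, gave 134 a.u. in OM, 266 in MB and 251 in NM. It was the exception among the listed MT1 probes, with MB and NM close together and both above OM. Its log2 ratio of MB over OM was 0.99, a 1.99-fold difference in the opposite direction to that of the representing probe.

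MT1F gave a weak signal, 54.8 a.u. in OM, 29.1 in MB and 90.7 in NM. The order was that of the other MT1 genes, but no array passed 100 a.u. before scaling, so the gene could not be counted as past any fold. Its log2 ratio of MB over NM was -1.64 and moved between -1.89 and -0.76 with the processing.

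MT3, the brain isoform, gave 2108 a.u. in OM, 2207 in MB and 2194 in NM. These values lay within the technical SD of each other, with log2 ratios of 0.07 (MB over OM), 0.06 (NM over OM) and 0.01 (MB over NM). With other processing its ratio ran from -0.21 to 0.07 for MB over OM and from -0.13 to 0.13 for NM over OM. The coding probe printed above stayed at background and has no ratio. Subtracting the log2 ratio of MT3 from that of another member removes any factor common to an array. By this measure the ratio of MB over NM was 1.22 lower for MT1A, 1.02 lower for MT1E and 0.70 lower for MT2A than for MT3, which shows unequal change and not which gene changed.

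**Figure D3:**
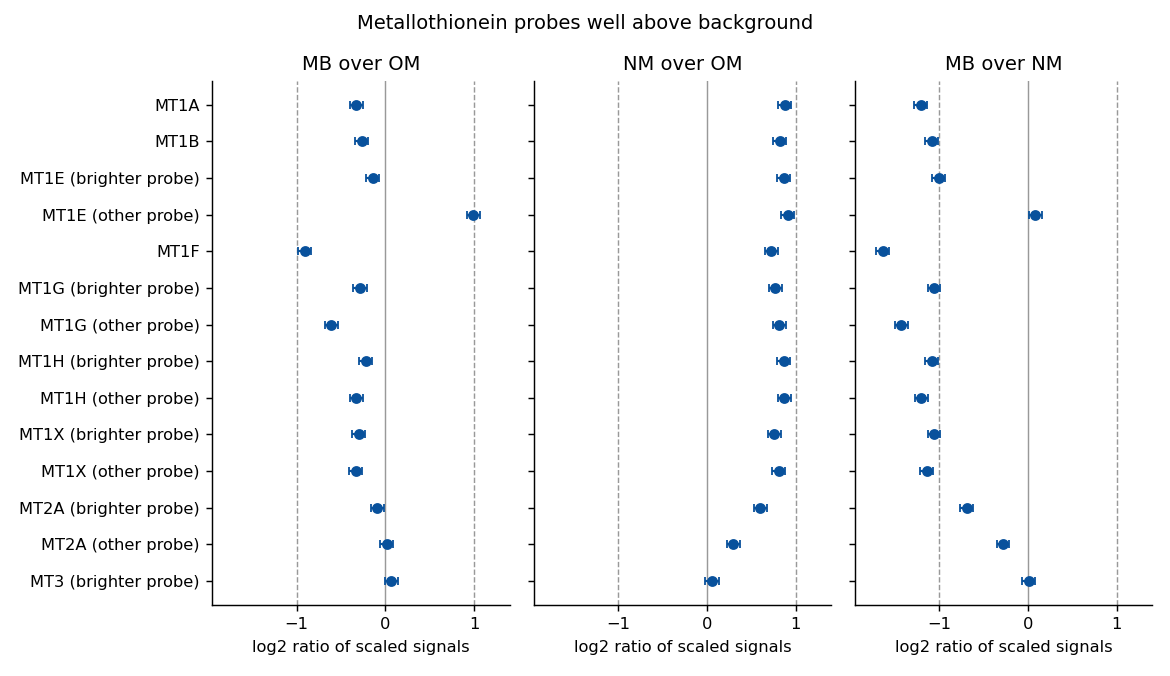
log2 ratio of scaled signals for the 14 metallothionein probes well above background, in the comparisons MB over OM, NM over OM and MB over NM, with bars of 1 technical SD of a single spot (0.07) and dashed lines at 2-fold. All MT1 probes lie right of 0 for NM over OM, and 1 probe of MT1E is the MT1 probe lying right of 0 for MB over OM.

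The 8 bright MT1 probes gave nearly the same ratios. Their log2 ratio of MB over OM ran from -0.33 to -0.14, that of NM over OM from 0.76 to 0.88 and that of MB over NM from -1.21 to -1.01. The SD between these probes was 0.07, 0.05 and 0.07, close to the technical SD of 0.06 to 0.07 at that brightness. With shared sequence the 8 probes are not 8 independent measurements.

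Family members outside the list gave further readings. MT1M, an isoform known from liver, gave 2527 a.u. in OM, 2408 in MB and 4715 in NM, a log2 ratio of 0.90 for NM over OM and -0.97 for MB over NM. A probe for MT1L, regarded as a pseudogene, gave 85737, 71506 and 149132 a.u., and a second MT1L probe was at background. The bright MT1L probe shared up to 19 bases in a row with member probes and matched the representing MT1E probe at 38 of 42 overlapping bases. It repeated the order of populations of the bright MT1 probes. MT1JP gave 40.5 a.u. in OM and 34.7 in MB, and its NM signal was at background. MT4, known from stratified epithelia, was also at background.

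The first comparison asks what changed when flat cells formed bodies in hESC medium. No member passed 5-fold between MB and OM, where 0.824% of 22206 genes were higher and 0.554% lower. Likewise 0 members passed 2-fold, against 5.42% of genes higher and 3.38% lower. The median log2 ratio of the 9 genes was -0.27, with 8 below 0 and 1 above, beside a median of 0.09 over all genes, of which 43.3% were below 0. In bulk RNA of this kind, fewer cells making a transcript and less of it per cell cannot be told apart.

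The next comparison asks whether the original pattern came back once bodies were returned to serum. No member passed 5-fold between NM and OM (0.626% of 21404 genes were higher and 0.453% lower), and 0 passed 2-fold (3.58% higher and 4.91% lower). All 9 genes had a log2 ratio above 0, with a median of 0.77 beside 0.05 for all genes, of which 53.6% were above 0. The MT1 and MT2A signals in NM were above those of OM, while the MT3 ratio of 0.06 lay within the technical SD.

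Between MB and NM, which differ by the 10 days back in FCS medium and the loss of the bodies, 6 of the 9 genes passed 2-fold and all 6 were lower in MB: MT1A, MT1B, MT1E, MT1G, MT1H and MT1X. Over all genes 8.48% of 21683 were lower in MB by this rule and 11.2% were higher. Counting genes by name overstates this group, since the 6 are read through probes that share sequence. At 5-fold 0 members passed (1.85% of genes higher and 1.37% lower). The median log2 ratio of the 9 genes was -1.06 beside 0.07 for all genes. MT1E lay just past the threshold at -1.01 and MT2A short of it at -0.69. The count rested on the scaling, with 0 genes past 2-fold after quantile normalization and 1 without scaling. The 3 comparisons share arrays and are not independent of each other.

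Most member probes are bright, and bright genes were looked at alone. Among 3156 genes with a mean signal above 10000 a.u., the median log2 ratio was -0.05 for MB over OM, 0.20 for NM over OM and, between MB and NM, -0.21. In this set 11.5% fell below NM in MB by at least 2-fold and 4.88% lay above it by as much. Bright genes as a whole thus leaned the same way as the metallothioneins, by less.

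**Figure D4:**
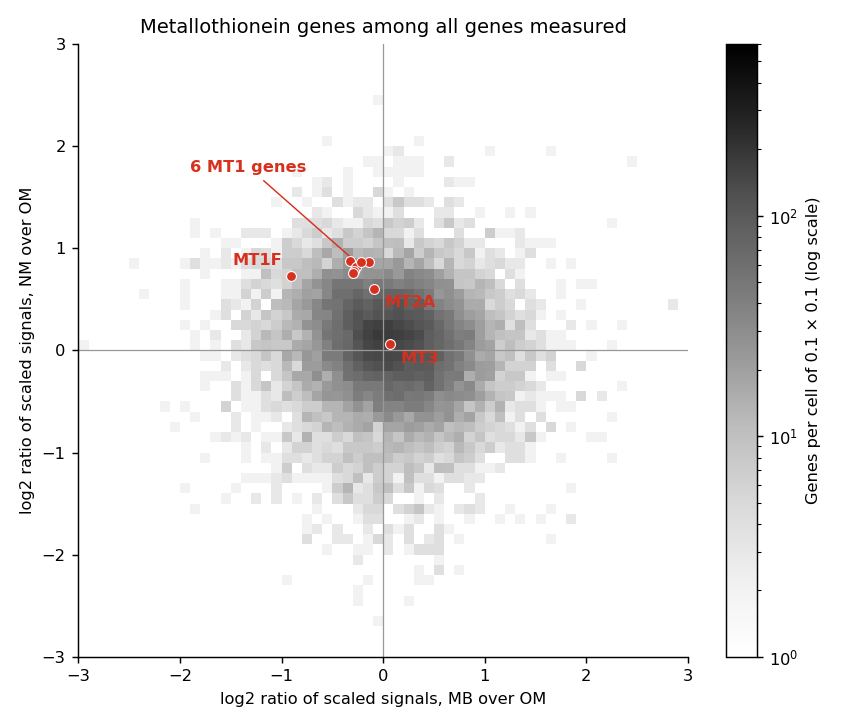
log2 ratio of MB over OM (horizontal) against NM over OM (vertical) for the 19245 genes measured on all 3 arrays, as grey cells of 0.1 by 0.1 shaded by the number of genes on a log scale (axes end at -3 and 3), with the 9 metallothionein genes as red points. The 6 bright MT1 genes lie together above the centre and to its left, MT2A lies lower, and MT3 lies near the centre; both axes share the OM array.

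By likeness of pattern, the 3 named genes among the 5 nearest to MT2A in the pair of log2 ratios (MB over OM, NM over OM) were RRM1, the large subunit of ribonucleotide reductase, EFCBP1, and SENP7, a SUMO protease. The other 2 were probes without a gene symbol. RRM1 gave 53566 a.u. in OM, 50676 in MB and 81879 in NM. With 3 arrays such a likeness is common, and 176 of 17571 genes lay within 0.1 of MT2A.

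Metal response elements were looked for in the 250 bases upstream of the RefSeq gene start (GRCh38.p14), in a table that held 4 of the 9 members, MT2A, MT1B, MT1H and MT1X, and not MT1A, MT1E, MT1F, MT1G and MT3. The letters searched were TGCACNC and TGCGCNC on both strands, and no matches overlapped. Over 35116 promoters of the table, 9.87% held the first, 16.8% the second and 24.8% either, while 0.370% held 4 or more. MT1H held 8, MT2A 7, MT1X 4 and MT1B 3, and as many as in MT1B were held by 1.58% of promoters. The promoters of these 4 genes are printed below, with matches in capitals.
MT2A, chr16:56608334-56608583, + strand: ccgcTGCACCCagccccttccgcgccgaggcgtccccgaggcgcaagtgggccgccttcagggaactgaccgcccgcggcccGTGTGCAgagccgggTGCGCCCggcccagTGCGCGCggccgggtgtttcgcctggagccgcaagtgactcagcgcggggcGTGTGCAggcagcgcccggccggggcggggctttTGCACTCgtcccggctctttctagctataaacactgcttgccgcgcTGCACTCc
MT1H, chr16:56669564-56669813, + strand: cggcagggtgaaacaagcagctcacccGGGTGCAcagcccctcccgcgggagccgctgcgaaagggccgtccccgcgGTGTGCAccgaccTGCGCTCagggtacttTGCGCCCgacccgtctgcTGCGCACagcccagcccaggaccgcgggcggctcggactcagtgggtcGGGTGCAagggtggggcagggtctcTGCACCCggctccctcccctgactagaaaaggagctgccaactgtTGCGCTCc
MT1X, chr16:56682220-56682469, + strand: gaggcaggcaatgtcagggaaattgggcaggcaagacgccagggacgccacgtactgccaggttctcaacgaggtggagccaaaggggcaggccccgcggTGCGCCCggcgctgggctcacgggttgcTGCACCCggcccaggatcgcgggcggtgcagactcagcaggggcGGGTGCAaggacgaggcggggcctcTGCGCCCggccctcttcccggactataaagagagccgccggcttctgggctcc
MT1B, chr16:56651636-56651885, + strand: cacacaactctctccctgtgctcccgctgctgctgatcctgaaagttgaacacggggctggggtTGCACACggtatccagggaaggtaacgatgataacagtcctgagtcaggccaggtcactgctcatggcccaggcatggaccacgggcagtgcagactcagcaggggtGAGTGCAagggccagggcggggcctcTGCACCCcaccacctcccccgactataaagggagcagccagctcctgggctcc
MT2A, with 7 matches, had the smallest log2 ratio of NM over OM among these 4 genes, 0.60, and MT1B, with 3, had 0.82. With 4 promoters, MT1 probes that share sequence and a second MT2A probe at 0.30, these values cannot rank the genes. Whether the number of matches bears on the size of change was not tested. A match is a stretch of letters and not a measured binding site.

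Of 19 zinc transporters measured on all 3 arrays, 13 were highest in MB, 5 in NM and 1 in OM. The shares of all genes highest in each population were not worked out, so whether these counts are unusual was not tested. The order NM over OM over MB was held by 1, SLC39A14, beside 26.9% of all genes measured on all 3 arrays. SLC39A14 gave 24715 a.u. in OM, 23973 in MB and 32117 in NM, and was picked for that order after its values were seen. Its log2 ratio of MB over OM, -0.04, lay within the technical SD. Of the 24 on the array, 2 were past 2-fold higher in MB than OM and 0 lower, beside 5.42% and 3.38% of all genes. In the same way 3 were higher in MB than NM and 0 lower, beside 11.2% and 8.48%, so these counts stand near those of the whole array. The medians were 0.25 and 0.49, beside 0.09 and 0.07 over all genes. SLC30A1, which exports zinc from the cell and is itself known as a target of MTF1, gave 426 a.u. in OM, 1120 in MB and 430 in NM, a log2 ratio of 1.39 for MB over OM. It was highest in the bodies, where the bright MT1 probes were lowest. SLC39A7, which releases zinc from the endoplasmic reticulum, gave 10163 a.u. in OM, 11807 in MB and 3925 in NM. SLC39A9, a zinc transporter of the Golgi, gave 401, 767 and 331 a.u. and was also highest in MB. SLC30A3, known for loading synaptic vesicles with zinc, was highest in NM, with 131 a.u. in OM, 296 in MB and 376 in NM.

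Of 15 copper handling genes on the array, 0 passed 2-fold in any comparison. Over all genes 5.42% were higher and 3.38% lower for MB over OM, 3.58% and 4.91% for NM over OM, and 11.2% and 8.48% for MB over NM, so few calls would come from 15 genes in any case. Of the 13 measured on all 3 arrays, 7 were highest in NM, 4 in MB and 2 in OM, again without shares over all genes to set beside them. The order NM over OM over MB was held by 6 of the 13, beside 26.9% of all genes measured on all 3 arrays. Among these, SLC31A2 and STEAP3, named after their values were seen, had log2 ratios of MB over OM within the technical SD, -0.06 and -0.05. The medians were -0.05 (MB over OM), 0.13 (NM over OM) and -0.19 (MB over NM).

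Of 8 transcription factors known to act on metallothionein promoters or to mediate their inducers, 5 were highest in MB and 3 in NM. Shares over all genes were not worked out for these counts either. The order NM over OM over MB was held by 1 of the 8, beside 26.9% of all genes measured on all 3 arrays. Over the 8 listed, the median log2 ratio of MB was 0.46 to OM and 0.82 to NM, and 1 was past 2-fold higher in each (5.42% and 11.2% of all genes), USF1, an E-box factor known to bind metallothionein promoters, with 69.6 a.u. in OM, 153 in MB and 76.3 in NM. MTF1, the zinc sensor itself, named here for its role after its values were seen, gave 1748 a.u. in OM, 2414 in MB and 1357 in NM, so that the log2 ratio to OM was 0.47 in MB, and that of MB to NM was 0.83. Its transcript thus ran opposite to those of the MT1 genes; the arrays do not measure its activity. The 3 highest in NM, also named after their values were seen, were NFE2L2, the factor of the oxidative stress response, at 17197 a.u. in OM, 17423 in MB and 27417 in NM, HIF1A, the hypoxia factor, at 11015, 10633 and 15120 a.u., and NR3C1, the glucocorticoid receptor, at 2979, 5401 and 5656 a.u. For NR3C1 the difference between MB and NM, a log2 ratio of -0.07, lay within the technical SD, and both were above OM. NR3C1 is also in the glucocorticoid list below.

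Of 11 glucocorticoid response genes measured on all 3 arrays, 8 were highest in NM, 2 in OM and 1 in MB. The order NM over OM over MB was held by 5, beside 26.9% of all genes measured on all 3 arrays. The shares of all genes highest in each population were not worked out. Some of these ranks rest on differences within the technical SD: ZBTB16 (log2 ratio of NM over OM 0.01) and NR3C1 (MB over NM -0.07). Both are named after their values were seen. Of the 12 on the array, 3 were past 2-fold lower in MB than NM and 0 higher, beside 8.48% and 11.2% of all genes, with a median of -0.43. CEBPD, a transcription factor of the acute phase response, gave 50477 a.u. in OM, 17523 in MB and 111126 in NM, and the log2 ratio of -2.66 for MB over NM was past 5-fold. TSC22D3, the glucocorticoid-induced leucine zipper, gave 844, 491 and 2051 a.u., and NFKBIA, an inhibitor of NF-kB, 37679, 22941 and 81157 a.u. These 3 had the order NM over OM over MB. FKBP5, another classical target named here after its values were seen, gave 148 a.u. in OM, 126 in MB and 123 in NM, with a log2 ratio of 0.04 for MB over NM. SGK, a kinase gene induced by glucocorticoids and likewise named afterwards, ran the other way, with 14493 a.u. in OM, 20321 in MB and 12331 in NM. Whether hormone or metal supply of the media has a part in the metallothionein values was not tested.

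**Figure D5:**
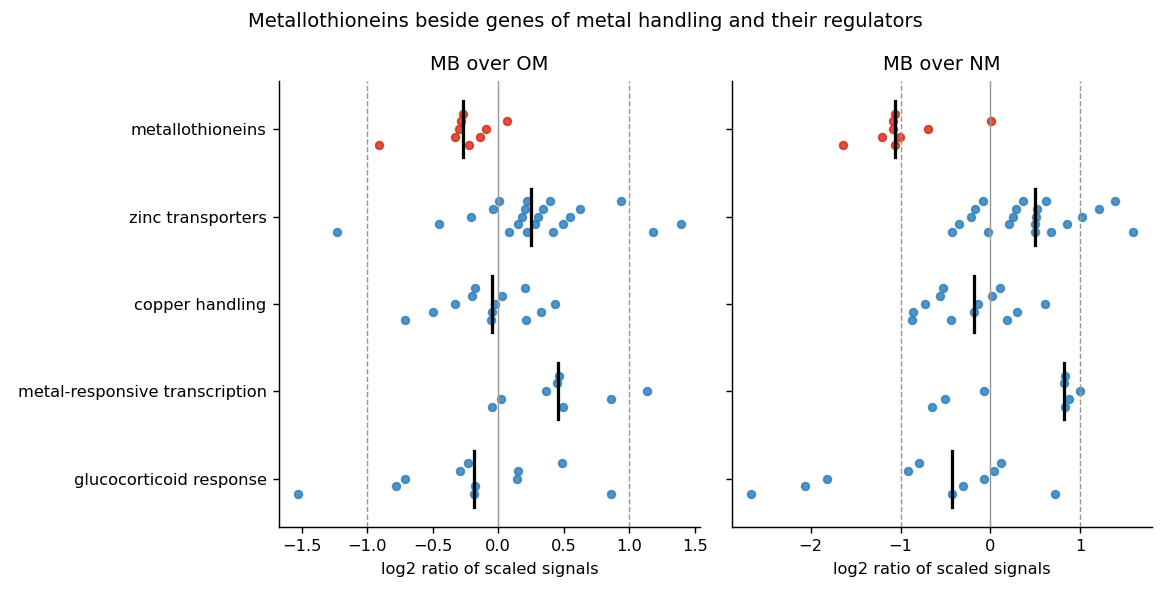
log2 ratio of scaled signals for MB over OM and MB over NM of the 9 metallothionein genes (red) and of the genes of the 4 lists measured in each comparison (blue, 1 point per gene), with black bars at the medians and dashed lines at 2-fold. The metallothionein median for MB over NM is -1.06, against 0.49 for zinc transporters, -0.19 for copper handling, 0.82 for metal-responsive transcription and -0.43 for glucocorticoid response.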

How the data were processed

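RNA of 3 populations was hybridised to 1-colour Agilent arrays (Cy3). The authors deposited the intensity of each spot, extracted with Feature Extraction (version 9.5.3.1 in the file headers), with background subtracted and no scaling between arrays. The deposited series value table holds the same intensity values (130128 of 130128 within 0.1%). Outlier spots were left out, spots of a probe averaged, and each array scaled to 3 housekeeping genes (arithmetic mean of GAPDH, ACTB and HSP90AA1, each by its 10-spot probe). The study names HSP90 without the gene. A gene was represented by its probe with the highest mean signal, and passed 5-fold or 2-fold if the brighter array was well above background and over 100 a.u. unscaled. Genes tested are those whose brighter array was well above background.

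With 1 array per population no test was run; precision is limited by that number. Members and lists were chosen with earlier results of these data known. Named genes are all members, other family genes on the array, list genes past 2-fold for MB over OM or MB over NM (at most 4 a list), the 5 genes nearest to MT2A and the scaling genes. Promoters and gene names came from RefSeq (GRCh38.p14), and probe positions are in hg17.

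As alternatives, arrays were left unscaled, quantile normalized, or scaled to their 75th percentile, to 8 spike-in probes or to the geometric housekeeping mean. Background was corrected by normexp (limma, offset 50) or not subtracted, outlier spots were kept, the filter on dim signals was dropped or made stricter, a gene was taken from the mean of its probes, its probe of largest ratio or its dimmer probe, and the value table replaced the scanner files. Python 3.11.15, numpy 2.4.6, pandas 2.3.3 and matplotlib 3.10.9 were used, and the calling steps were tested on simulated data.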

Additional observations from a re-analysis of the deposited data

How the results depend on the processing

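No member passed 5-fold in any comparison under any of the 14 alternatives listed above. No paired analysis was possible because each population has a single array. The 6 genes past 2-fold between MB and NM became 0 after quantile normalization and 1 without scaling. Without the filter on dim signals, which MT1F did not pass, the count was 7. The median log2 ratio of the 9 genes for MB over OM was -0.46 with 75th percentile scaling, -0.13 after quantile normalization and -0.55 with spike-in scaling. For NM over OM it was 0.70, 0.56 and 0.63 under the same alternatives and 0.58 without scaling. For MB over NM it was -1.17 with 75th percentile scaling, -0.62 after quantile normalization, -0.90 without scaling, -1.20 with spike-in scaling, -1.15 with the geometric mean and -1.14 by the probe with the largest ratio. By the dimmer probe of each gene with several, an alternative chosen after seeing the data, it was -1.17, and MT1E turned to 0.0796. Spike-in scaling moved the median of all genes by -0.28 for MB over OM, and relative to that median the members stood at -0.35 with this and the other divisors and at -0.12 after quantile normalization. Counting the dimmer probes too, MT1E for MB over OM changed sign under 3 and MT2A under 2, while MT3 changed sign under 3 or 4 in each comparison. Apart from these and from MT1E for MB over NM, no alternative turned the sign of a member. Levels of dim probes such as MT1F are limited by the signal over background.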
